A study of Mus musculus with 18 samples.

Results

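Cytosolic ribosomal protein genes encode the proteins that, with the ribosomal RNAs, build the ribosomes of the cytoplasm. Genes were taken as members when the symbol was Rpl or Rps followed by a number and at most one of the letters a, x or l, or when it was Rplp0, Rplp1, Rplp2 or Rpsa. This rule used names only, and it found 81 members among 21761 genes. Of these, 49 belong to the large subunit and 32 to the small subunit.

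RNA was sequenced from 3 kinds of sorted mouse B lineage cells of 2 genotypes, with 3 libraries in each of 6 groups. Naive B cells (nB; B220+ GL7- Fas-) came from lymph nodes of unimmunized mice. Germinal center B cells (GCB; B220+ GL7+ Fas+ and binding phycoerythrin, PE) came from lymph nodes 30 days after immunization with PE in complete Freund's adjuvant, and 2 mice were pooled for each GCB library. CD138+ bone marrow plasma cells (BMPC) were sorted from mice immunized in the same way, at the same time point. Dnmt3-deficient mice carried Dnmt3afl/fl Dnmt3bfl/fl and 1 Cre allele active in B lineage cells, which removed the catalytic exons of both de novo DNA methyltransferases there. Dnmt3-sufficient littermates carried Dnmt3afl/fl Dnmt3bfl/fl without Cre, so every mouse carried the floxed alleles and had the strain label B6;129S4-Dnmt3atm3.1Enl Dnmt3btm5.1Enl/Mmnc. Mice were 8 to 12 weeks old when experiments began. Cell type therefore goes with tissue and immunization in this design, and their parts in a difference cannot be told apart. Sex was not balanced between them either, with 4 female and 2 male libraries each in nB and GCB and 2 female and 4 male in BMPC. The labels do not say of every library that it came from an animal of its own, so p-values measure only the spread between these libraries.

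Each library was made from 5000 cells. An nB library had 6692516 to 8987922 reads on genes and a GCB library 7644544 to 8903872. A BMPC library had 1355231 to 3803197. FPKM of the whole Dnmt3a gene was 2.35 to 5.18 in sufficient and 2.24 to 4.33 in deficient nB, and it was at most 3.08 in every GCB and BMPC library. These values cover all exons and do not check the deletion of a few of them. The summed FPKM of 6 plasma cell genes was 17000 to 48100 in BMPC and at most 917 in every nB and GCB library. Jchain made up most of this sum, at 16200 to 46600 in BMPC. Xbp1, Sdc1, Tnfrsf17 and Prdm1 were also higher in every BMPC library than in any other. For Prdm1 the gap was narrow, with a lowest BMPC value of 0.838 and at most 0.783 elsewhere. Irf4 overlapped, at 0.315 to 55.2 in BMPC and 17.2 to 31.0 in nB. The BMPC libraries also held markers of other cells. The sum of 5 neutrophil genes was 0 in all nB and GCB libraries, 34.2 to 453 in sufficient BMPC and 9.37 to 569 in deficient BMPC, with Camp and Ltf at 0 in 5 of the 6 libraries. The sum of 3 erythroid genes was 1090 to 2030 in sufficient and 92.1 to 763 in deficient BMPC, and at most 218 elsewhere. T cell genes summed to 53.5 to 198 and macrophage genes to 40.5 to 168 in BMPC, with Adgre1 at 0 in 5 libraries and Csf1r in 4. Both ranges overlapped those of nB, at 17.9 to 59.2 for T cell and 1.7 to 73.9 for macrophage genes. In GCB the sums were at most 5.31 and 19.7. Early B cell genes, mostly Dntt, summed to 307 to 613 in all 6 BMPC libraries and to at most 22.5 elsewhere, with Vpreb1 at 0 in 3 of the 6. The part of these cells in the results was not tested, except where libraries are left out. In such mixed RNA, fewer cells of a type and less RNA per cell cannot be told apart.

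A ribosome is made of a small subunit, which reads the mRNA, and a large subunit, which joins amino acids. Each ribosomal protein is needed in about equal copies per ribosome, and nearly all are encoded by a single active gene among many processed pseudogenes. Many of these mRNAs begin with a cytosine and a run of pyrimidines, the terminal oligopyrimidine (TOP) motif, through which mTORC1 and Larp1 control their translation. Plasma cells are specialised for making and secreting antibody, and germinal center B cells for rapid division and selection.

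Sequences around annotated start sites are shown for 7 members to which the results below return. They come from RefSeq promoters on GRCm38.p6, each with 15 bases before the start and 15 from it onward. Capitals mark a run of pyrimidines that holds a C followed by at least 4 pyrimidines, where this C lies within 5 bases of the start. Coordinates are chr3:90213634-90213663 (minus strand) for Rps27, chr9:66946071-66946100 (plus) for Rps27l, chr2:26910792-26910821 (plus) for Rpl7a, chr4:86857353-86857382 (minus) for Rps6, chr2:32961697-32961726 (plus) for Rpl12, chr10:128626492-128626521 (minus) for Rps26 and chr8:123102335-123102364 (plus) for Rpl13.
Rps27: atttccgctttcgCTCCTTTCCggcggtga
Rps27l: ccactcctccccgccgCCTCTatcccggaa
Rpl7a: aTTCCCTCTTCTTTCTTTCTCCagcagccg
Rps6: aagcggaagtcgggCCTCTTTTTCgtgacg
Rpl12: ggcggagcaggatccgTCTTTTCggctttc
Rps26: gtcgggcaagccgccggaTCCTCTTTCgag
Rpl13: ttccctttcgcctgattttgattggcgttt

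The run was 21 bases long in Rpl7a, 10 in Rps6, 9 in Rps27 and Rps26, 7 in Rpl12 and 5 in Rps27l, while Rpl13 held no such run near this start. Promoters were found for 60 of the 81 members, with 72 start sites. A tract of this kind was present at 30 of the 72 starts (41.7%), against 18.3% of all promoters and 22.7% of those of mitochondrial ribosomal proteins. Within the 300-base promoters, on either strand, the letters CCGGAA were found in 47.2% of member promoters, 14.9% of all promoters and 57.3% of those of mitochondrial ribosomal proteins. In the same order, GCCATNTT was found in 20.8%, 6.05% and 28%, and GGGCGG in 58.3%, 35.7% and 52.0%. TATAAA was found in 8.33%, 13.6% and 6.67%, and CACGTG in 11.1%, 7.15% and 9.33%. CCGGAA and GCCATNTT were thus more frequent in the mitochondrial family than in the members. None of these motifs contains another, though matches may overlap at their ends, and a match is only a description of the sequence.

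In every library the members took a large share of the reads on the genes analysed. They held 5.57%, 5.16% and 4.71% of the reads in the 3 sufficient nB libraries and 4.97%, 5.80% and 4.57% in the deficient ones. In GCB the shares were 5.76%, 5.49% and 6.05% in sufficient and 5.75%, 4.63% and 5.52% in deficient libraries. In BMPC they were 10.4%, 9.75% and 10.7% in sufficient and 8.46%, 6.91% and 8.68% in deficient libraries. All 6 BMPC libraries thus lay above all 12 others, and the nB and GCB ranges overlapped. Mean shares of the sufficient groups were 5.14% ± 0.43 (nB), 5.77% ± 0.278 (GCB) and 10.3% ± 0.506 (BMPC; SD, n = 3 each). Those of the deficient groups were 5.11% ± 0.626, 5.30% ± 0.595 and 8.02% ± 0.966. These are shares of the reads on the genes analysed. The immunoglobulin heavy and light chain genes were not analysed here, so the members' share of all BMPC mRNA is not given by these values. Jchain, the joining chain of secreted antibody, is in the table and took 3.40% to 5.38% of the reads in sufficient and 6.26% to 9.80% in deficient BMPC.

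**Figure D1:**
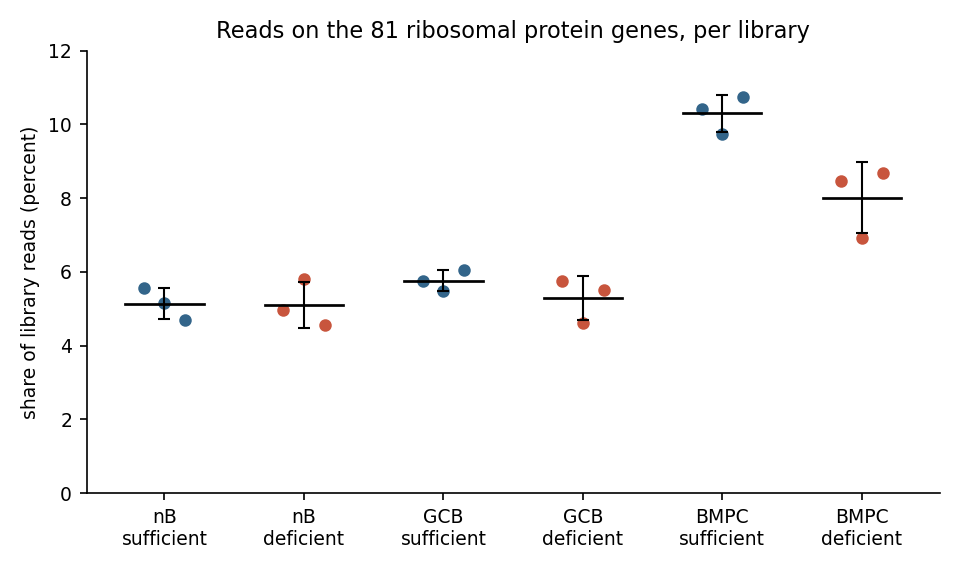
Percent of the reads on genes (vertical axis, from 0) that fell on the 81 ribosomal protein genes in each of 18 libraries, by cell type and genotype (blue sufficient, red deficient; line and bar are the mean and SD of 3 libraries). The 6 BMPC libraries lie between 6.91% and 10.7%, above the nB and GCB libraries, which lie between 4.57% and 6.05%.

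The balance of the subunits hardly moved. Small subunit members held between 37.9% and 41.1% of the member reads in every library. Rpl3, a protein that reaches toward the peptidyl transferase center, took the most member reads in all 6 nB and all 6 GCB libraries, with 5% to 6.19% of them. In BMPC it took 2.95% to 4.55%, and the most reads fell on Rps6 in 5 libraries and on Rplp0 in 1.

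Levels per exon length ranged widely among members but in nearly the same order in each cell type. The median FPKM of the 79 members that passed the filter on low values (more than 1 FPKM in 2 or more libraries) was 594 for nB, 712 for GCB and 1210 for BMPC. The highest were Rpl4 in GCB (mean 1845) and Rps14 in BMPC (3801), and 72, 72 and 75 members were at 100 FPKM or more. Over all libraries the highest means included those of Rpl32, Rps14, Rpl7 and Rpl41. Spearman's rho of the member levels was 0.956 between nB and GCB, 0.921 between nB and BMPC and 0.950 between GCB and BMPC, and it was 0.986 to 0.998 between genotypes within a cell type. These are descriptions over 79 members that share exon lengths and libraries. Rpl13 moved furthest down the order, from rank 3 in nB to 17 in GCB and 42 in BMPC, and Rps27 went from 4 to 20 and 22. Rps27l moved up from 73 to 66 and 55.

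The spread of the members between libraries lay furthest below that of other genes of high level in BMPC. The median SD of log2(FPKM + 1) among 3 libraries was 0.145 for the members and 0.189 for all tested genes of 100 FPKM or more in sufficient nB, and 0.189 and 0.199 in deficient nB. In GCB it was 0.0952 and 0.116 in sufficient and 0.203 and 0.195 in deficient libraries. In BMPC it was 0.124 and 0.331 in sufficient and 0.265 and 0.373 in deficient libraries.

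The lowest members were tissue paralogs and Rpl34. Rpl10l, a testis paralog of Rpl10, was listed at 0 in all 18 libraries. Rpl3l, a muscle paralog of Rpl3, was at 19.0 FPKM (41 reads) in deficient BMPC library 2 and at most 0.656 in the others. These 2 members did not pass the filter. Rpl39l, a paralog of Rpl39, was at 0 in all BMPC libraries and reached 2.98 FPKM in GCB. Rps4l, a paralog of the X-linked Rps4x, ranged from 0 to 26.9 FPKM, and both extremes were BMPC libraries. Rpl34 lay between 3.09 and 24.8 FPKM, far below the parent genes Rpl3, Rpl10, Rpl39 and Rps4x, whose lowest value in any library was 349.6.

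Copies in the genome limit what single members can show. Of 79 members placed on mm9, 73 had at least 1 other place with 95% identity over 90% of the coding sequence, with a median of 5 and a maximum of 55 for Rpl21. Each read was reported at 1 position at most, so reads of such members can be split with a copy. Rps27l and Rpl3l had no such copy. The rank correlation of level with the number of copies was 0.0555, and that with exon length was -0.13, over 77 members.

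From nB to GCB most members differed little. By the test used throughout, limma on log2(FPKM + 1) with Benjamini-Hochberg adjustment over 11522 genes, a gene was called when its adjusted p was 0.05 or less and its change was 2-fold or more. Only Rps27l was called among the 79 members, higher in GCB by 1.51 on the log2 scale (SE 0.153, adjusted p = 1.15e-06), while 9.47% of all genes were called higher and 12% lower. By adjusted p alone 16 members were higher and 2 lower, where 12.7% and 14.1% of all genes were. The median member change was 0.105, and that of all genes -0.134. The 6 nB and 6 GCB values did not overlap for 7 members that were higher and 2 that were lower, against 13.2% and 14.4% of all genes.

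Among the members past the adjusted p but not 2-fold was Rplp0, the base of the ribosomal stalk, which binds elongation factors. Its FPKM was 992 to 1243 in nB and 1451 to 1872 in GCB, without overlap, a change of 0.67 (SE 0.0726, adjusted p = 2.68e-06). Rpl7a, at 457 to 643 in nB and 645 to 878 in GCB, was higher by 0.53 and did not overlap. Rpl28 was higher by 0.69, Rpl5 by 0.51 and Rpl4, which lines the exit tunnel, by 0.41. Rpl5 is part of the 5S RNA particle that can bind Mdm2. Rpl11, the other protein of that particle, was not past the threshold in GCB.

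Rps27 and Rpl37a were lower by adjusted p alone. Rps27, a zinc finger protein of the small subunit, was at 1827, 1753 and 1447 FPKM in sufficient nB, 1612, 1875 and 1409 in deficient nB, 1073, 1093 and 1161 in sufficient GCB and 1230, 959 and 1127 in deficient GCB. Every GCB value was below every nB value, and the change was -0.57 (SE 0.107, adjusted p = 0.000627). Rpl37a changed by -0.30 (SE 0.104, adjusted p = 0.0444). Rpl13 was lower in all GCB libraries (927 to 1335) than in any nB library (1470 to 2096), but with a pooled SE of 0.32 its change of -0.59 did not pass (adjusted p = 0.197). Rps24 (-0.35), Rps19 (-0.21) and Rpl17 (-0.18) did not pass either.

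From nB to BMPC the members rose almost together within the reads on the genes analysed. The immunoglobulin heavy and light chain genes were not among these. The paper reports that such chains made up far more of the mRNA in BMPC than in nB or GCB. Whether the members also rose as a part of all mRNA is thus not given by these values. Of the 79 tested, 21 were called higher and 0 lower, while 9.43% of all genes were called higher and 39.3% lower. By adjusted p alone 73 members were higher and 1 was lower, where 12.7% and 42.6% of all genes were. The median member change was 0.818 and that of all genes -0.792. The groups did not overlap for 47 members, all higher in BMPC, against 6.01% of genes higher and 18.8% lower. Another 46 members passed the adjusted p with a rise between 0.5 and 1, so the count of calls turns on the 2-fold limit: Rps3 (1.00, that is 0.999 before rounding), Rpl10a (0.99) and Rps24 (0.99) lay just under it and Rpl24 (1.03) just over.

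**Figure D2:**
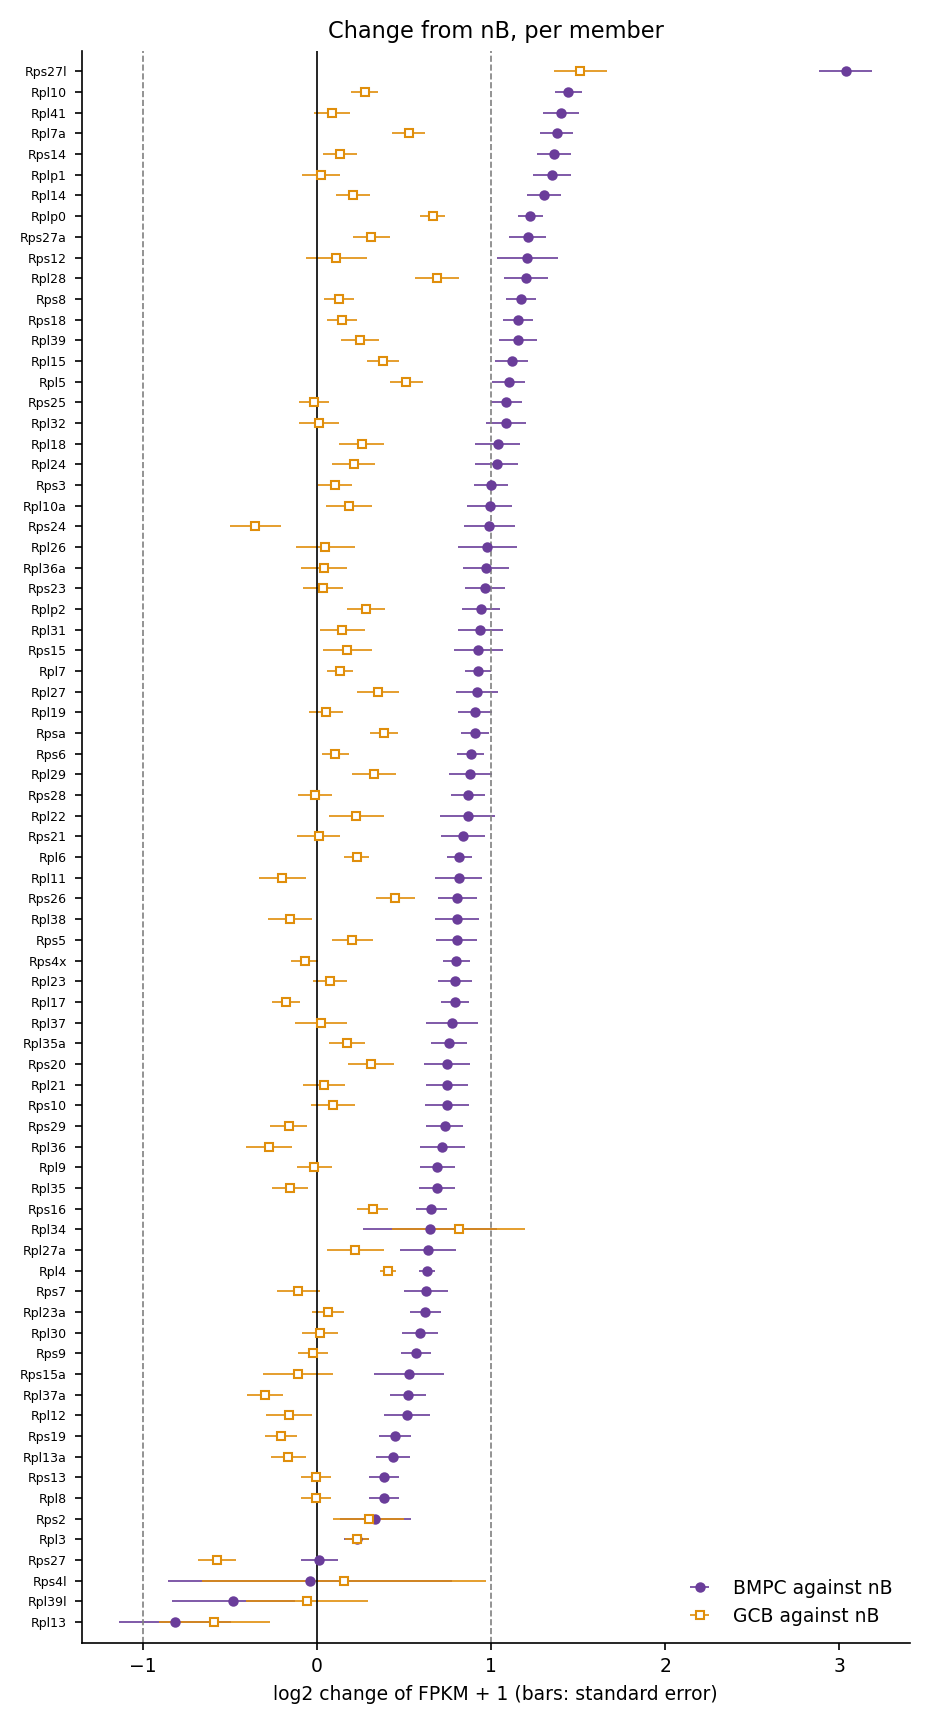
Change of log2(FPKM + 1) from nB (horizontal axis, bars are standard errors) for 76 of the 79 members tested, in BMPC (purple dots) and GCB (orange squares), ordered by the BMPC change, with dashed lines at 2-fold. Most BMPC points lie between 0.5 and 1.4, Rps27l stands at 3.03, Rps27 is at 0.01 and Rpl13 at -0.82, while the GCB points lie around 0.

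The rise was of like size in both subunits, with a median of 0.818 over 47 large subunit members (13 called) and 0.823 over 32 small subunit members (8 called). The largest rises after Rps27l were those of Rpl10 (1.44), Rpl41 (1.40), Rpl7a (1.38) and Rps14 (1.36). Rpl10 joins the large subunit late in its assembly. Its FPKM was 960, 898 and 918 in sufficient nB, 908.6, 1089 and 849 in deficient nB, 1208, 1151 and 1250 in sufficient GCB and 1189, 880 and 1144 in deficient GCB. In BMPC it was 2587, 2440 and 2692 in sufficient and 2481, 2389 and 2687 in deficient libraries. All BMPC values lay above all others, and within BMPC the genotypes overlapped. Rps14, a small subunit protein, went from 1242 to 1769 in nB to 2984 to 4265 in BMPC. Rpl41, the shortest ribosomal protein, went from 1096 to 1427 to 2447 to 4153.

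All 3 stalk proteins rose from nB to BMPC by adjusted p: Rplp1 by 1.35, Rplp0 by 1.23 and Rplp2 by 0.94, the last short of 2-fold. Rplp0 was at 2588 to 3298 FPKM in sufficient and 2054 to 2268 in deficient BMPC. Of the 5S particle, Rpl5 rose by 1.10 and was called, and Rpl11 rose by 0.81. Rps27a, made as a fusion with ubiquitin, rose by 1.21 and was called. Rps6, the S6 kinase substrate, rose by 0.88, Rpsa, also known as the laminin receptor, by 0.91 and Rps4x by 0.80. Rpl35a rose by 0.76 and Rps19 by 0.45, both genes of inherited Diamond-Blackfan anemia. Rpl39, which lines the exit tunnel, rose by 1.15.

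The members that did not follow were few. Rps2, Rps27, Rps4l, Rpl39l and Rpl34 did not pass the adjusted p, and Rpl3 passed with a rise of 0.23 only. Rps27 was at 1577 to 1923 in sufficient and 1184 to 1868 in deficient BMPC, which overlaps the nB values. Rpl13, a large subunit protein, was lower by adjusted p alone (-0.82, SE 0.320, adjusted p = 0.0395). Its FPKM was 1494, 2096 and 309 in sufficient and 802, 833 and 1410 in deficient BMPC, a spread of nearly 7-fold, while nB held 1470 to 2096. Its difference rests on few libraries: it was -0.40 without sufficient BMPC library 3, and it was -1.09 and called lower without sufficient BMPC library 2. Without the 3 libraries whose neutrophil genes summed to over 100 FPKM, it was -1.11 and also called.

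Within one genotype the number of members called higher was 46 in sufficient libraries, where 9.02% of all genes were called higher, and 11 in deficient libraries, where 6.25% were. It was 28 (12.2% of all genes) without the 3 libraries high in neutrophil genes, which leaves a single deficient BMPC library. With sex as a covariate it was 23 (9.53%). Under median of ratios scaling it was 39 (10.9%), with the median of all genes at -0.694 in place of -0.792.

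From GCB to BMPC the rise was of nearly the same size, again within the reads on the genes analysed. Of the 79 members 13 were called higher and 0 lower, where 7.72% of all genes were higher and 33.7% lower. By adjusted p alone 73 were higher and 0 lower (10.5% and 37.6% of all genes). The median was 0.751 for the members and -0.660 for all genes, and 43 members did not overlap between the groups, all higher in BMPC (5.13% of genes higher, 18.1% lower). Since both contrasts share the BMPC libraries, the 11 members called in both are given only as a count. The largest changes were Rps27l (1.52), Rps24 (1.34), Rplp1 (1.33), Rpl41 (1.31) and Rps14 (1.23). Rps24, which lay lower in GCB than in nB without passing, was at 82.8 to 108 in GCB and 172 to 325 in BMPC. Rps27 was higher in BMPC than in GCB by 0.59 (SE 0.107, adjusted p = 0.000287). Rpl3 did not differ by the test (-0.00, SE 0.0712, adjusted p = 0.999), and Rpl39l (-0.42), Rpl13 (-0.23), Rps4l (-0.19) and Rpl34 (-0.16) did not pass. With sufficient libraries alone 29 members were called higher (6.03% of all genes), and with deficient libraries alone 7 (5.67%).

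Rps27l stood apart from the other members. It encodes a near twin of Rps27 and is known as a target of p53. Rps27l lies at chr9:66793893-66797323 on the plus strand of mm9 and Rps27 at chr3:90016593-90017573 on the minus strand, and both are protein coding. Their coding sequences have 255 bases each, are identical at 76.1% of positions and share no identical run longer than 11 bases, so the 50-base reads could be told apart. Rps27l was at 119, 81.1 and 79.8 FPKM in sufficient nB, 101, 98.6 and 92.2 in deficient nB, 290, 273 and 274 in sufficient GCB and 305, 195 and 309 in deficient GCB. In BMPC it was at 890, 1094 and 1013 in sufficient and 747, 460 and 670 in deficient libraries. The 3 cell types did not overlap, and deficient BMPC lay below sufficient BMPC. Its rise from nB to BMPC was 3.03 (SE 0.153, adjusted p = 1.45e-10), an 8.20-fold change, and leaving out any single library kept it between 2.96 and 3.14. Between genotypes in BMPC it differed by -0.70 (SE 0.216), which did not pass (adjusted p = 0.0740).

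As a share of the FPKM of the pair, Rps27l made up 5.47% ± 0.697 in nB, with values from 4.42% to 6.14% (SD, n = 6). In GCB it made up 19.8% ± 1.68, from 16.9% to 21.5%, and in BMPC 32.2% ± 5.33, from 26.4% to 41.0% (SD, n = 6 each). The ranges of the 3 cell types did not overlap. Rps27 had 5 other places in the genome with 95% identity over 90% of its coding sequence, and Rps27l had none. Reads of Rps27 can be split with these copies, so the share of Rps27l may be overstated. In BMPC the share was 36.0% ± 4.72 in sufficient and 28.4% ± 2.17 in deficient libraries (SD, n = 3 each), again without overlap.

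**Figure D3:**
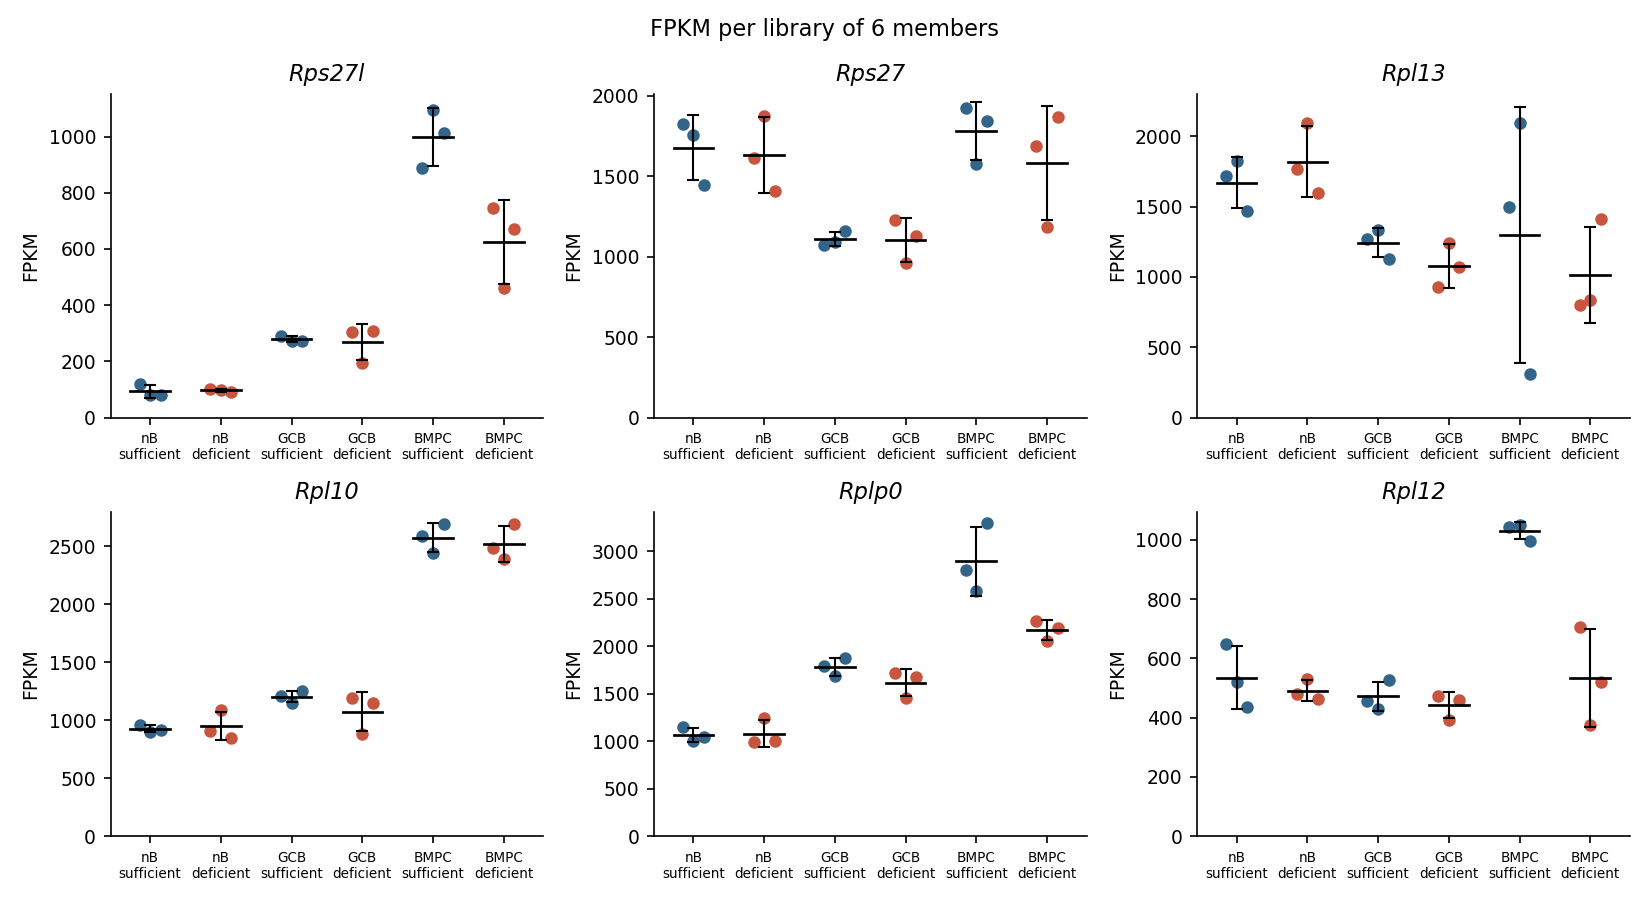
FPKM per library (vertical axes from 0, one scale per panel) of Rps27l, Rps27, Rpl13, Rpl10, Rplp0 and Rpl12 in the 6 groups (blue sufficient, red deficient; line and bar are the mean and SD of 3 libraries). Rps27l climbs over the 3 cell types, Rps27 is lowest in GCB, Rpl13 scatters from 309 to 2096 in BMPC, and Rpl12 is high in sufficient BMPC only.

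Members with and without the pyrimidine tract changed by much the same amount. The median change from nB to BMPC was 0.861 over the 28 members with a tract, 0.865 over 30 tested members without one and 0.748 over the 21 members with no promoter entry. Of the start sequences shown above, that of Rps27, whose level did not pass between nB and BMPC, holds a tract of 9 bases. That of Rpl7a, which rose by 1.38, holds a tract of 21 bases.

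Lists of other genes of the ribosome and its supply are given by their counts and medians, and their differences from the members were not tested. From nB to BMPC 9.43% of all genes were called higher and 39.3% lower, and by adjusted p alone 12.7% and 42.6%. Of 7 ribosomal genes that the naming rule leaves out, such as Fau and Rack1, 6 were higher from nB to BMPC by adjusted p, with a median of 0.655, and 1 was called: Rpl36al, a copy of the X-linked Rpl36a, whose nB values of 20.5 to 32.3 FPKM lay far below its BMPC values of 117 to 180, with 30.4 to 51.7 in GCB (change 2.46, SE 0.192, adjusted p = 2.63e-08). Rpl36a itself rose by 0.97. Of 16 translation factors and other mRNAs with a TOP start, 5 were called higher and 1 lower from nB to BMPC. Higher were Eef1b2 and Eef1d, exchange factors of elongation factor 1, Naca and Btf3 of the nascent chain complex, and Npm1, a nucleolar chaperone. Eef2, the translocation factor, was lower by 1.14 on the log2 scale (491 to 765 FPKM in nB, 185 to 361 in BMPC).

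Of 12 dedicated chaperones and import receptors of ribosomal proteins, 0 were called higher and 5 lower from nB to BMPC: Heatr3, which escorts Rpl5, Tsr2, which escorts Rps26, and the import receptors Ipo7, Ipo9 and Tnpo1. The list of 12 had a median of -1.44. Of 11 genes of the mTORC1 route, 6 were called lower (Mtor, Mlst8, Rps6kb1, Rps6kb2, Eif4ebp2 and Tsc1) and Eif4ebp1, an inhibitor of cap-dependent initiation, was called higher (1.43). No gene of either list lay without overlap between nB and BMPC. The shares of all genes called in this contrast are those given above. Of 76 mitochondrial ribosomal proteins, 25 were called higher and 5 lower, with a median of 0.658.

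From nB to GCB, where few members changed, 15 of 76 mitochondrial ribosomal proteins were called higher and 0 lower (median 0.636). Over all genes 9.47% were called higher and 12% lower. The small counts of the lists that follow, of 16, 12 and 11 genes, were not tested against these shares. Of the TOP list 3 were called higher, namely Npm1 (1.22), Hnrnpa1 (1.61) and Nap1l1 (1.25). Hnrnpa1 lay near the floor, at 0.427 to 1.58 FPKM in nB and 2.78 to 6.45 in GCB. Of the chaperones and import receptors, Ipo11 (1.72) and Kpnb1 (1.10) were called higher. None of the mTORC1 route was called. From GCB to BMPC 7.72% of all genes were called higher and 33.7% lower. Of the mitochondrial ribosomal proteins 1 was called higher and 8 lower there. Of the 12 chaperones and import receptors 8 were called lower, and of the TOP list 0 were called higher and 4 lower.

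Dnmt3 deficiency was compared within each cell type. In nB 0 members were called (0.0521% of all genes higher, 0% lower). No adjusted p of a member was below 1, and 1 member had an unadjusted p under 0.05. This was Rps2 (0.72), at 160, 121 and 94.4 FPKM in sufficient and 148, 173 and 326 in deficient nB, where a single library lies apart. The next by p were Rpl15 (-0.15) and Rpl13a (-0.16). Of the 79 members 45 were lower in deficient nB, with a median of -0.01. The groups overlapped for most genes: 4.17% of all genes lay lower without overlap and 4.66% higher.

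In GCB 0 members were called as well (0% of all genes in either direction), no adjusted p was below 1, and 1 member had an unadjusted p under 0.05. The differences were small but mostly of one sign, with 75 of 79 lower in deficient GCB and a median of -0.13. That median was -0.02 without deficient GCB library 2, whose member share was the lowest of the 6. The groups did not overlap for 4 members, all lower in deficient GCB (5.05% of all genes were lower and 5.58% higher without overlap): Rpl6 (-0.25), Rpl8 (-0.21), Rps6 and Rpsa. Rpl39l, near its floor, had the third lowest p (0.85).

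In BMPC 0 members passed both the adjusted p and the 2-fold limit, where 1.34% of all genes were called higher and 2.65% lower. By adjusted p alone 18 members were lower and 0 higher, against 3.07% and 1.43% of all genes. Of the 18, 13 belong to the large and 5 to the small subunit. The differences pointed one way: 78 of 79 were below 0, the exception being Rpl39l at 0 in all BMPC libraries, and 61 had an unadjusted p under 0.05. The median was -0.42, beside -0.05 for all genes. For 53 members each deficient library lay below each sufficient one, while 7.31% of all genes were lower and 3.02% higher without overlap.

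**Figure D4:**
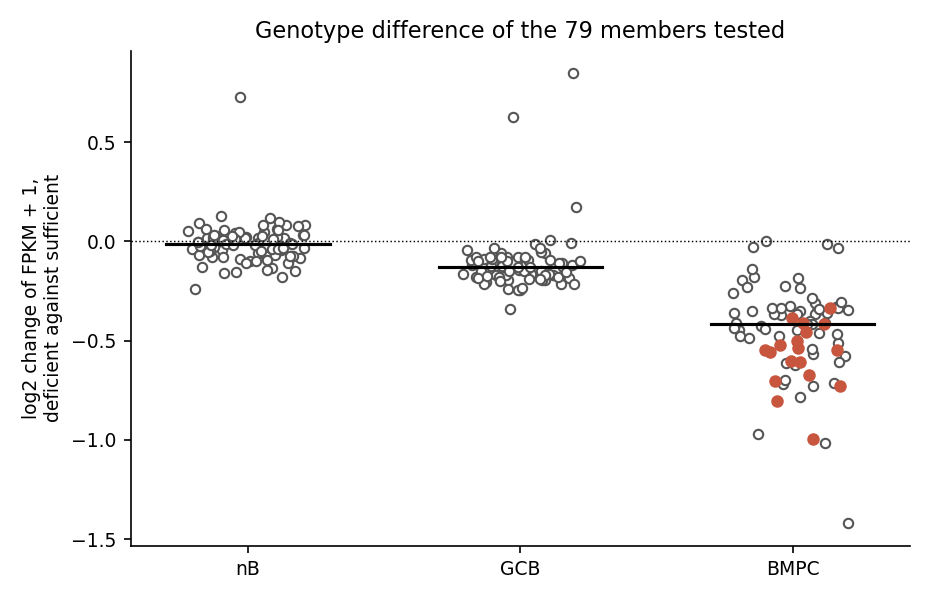
Change of log2(FPKM + 1), deficient against sufficient (vertical axis), of each of the 79 members tested in nB, GCB and BMPC; lines are medians and filled points have an adjusted p of 0.05 or less. The medians are -0.01 in nB, -0.13 in GCB and -0.42 in BMPC, and the 18 filled points are all in BMPC and below 0.

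Rpl12, at the base of the stalk, had the lowest p. Its FPKM was 1043, 1052 and 998 in sufficient and 706.5, 375 and 522 in deficient BMPC, without overlap, and the difference was -0.99 (SE 0.187, adjusted p = 0.00588), just short of 2-fold. The deficient BMPC values span its nB range of 437 to 649, and the sufficient ones lie above it. Rpl4 was at 2420, 2500 and 2346 in sufficient and 2000, 1894 and 1858 in deficient BMPC, a difference of -0.34 (SE 0.0661, adjusted p = 0.00776). Rps26 was at 1285, 1248 and 1369 in sufficient and 886, 700 and 868 in deficient BMPC (-0.68, SE 0.155, adjusted p = 0.0207). Each of these 3 members had all deficient values under all sufficient ones.

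Others past the adjusted p alone included Rps16 (-0.55), Rpl36a (-0.80), Rps21 (-0.73), Rplp0 (-0.41) and Rpl5 (-0.50). Rps2 had the larger difference of -1.02 but did not pass (adjusted p = 0.0547). Some members hardly differed, such as Rpl10 (-0.03) and Rps14 (-0.14), and Rpl13 (-0.01) had the scattered values given above. The median was -0.43 for the large and -0.42 for the small subunit.

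These genotype calls depend on how the spread was estimated. With BMPC libraries alone the lowest adjusted p of a member was 0.647, with a quality weight per library 0.436 and with voom on the recovered reads 0.0943, so that no member passed in any of the 3. The median was -0.24 under median of ratios scaling, with 74 of 79 members below 0, and -0.29 without the 3 libraries high in neutrophil genes, which sets 2 sufficient libraries against the single deficient library 1. Other values move with genotype in BMPC: the reads on genes were 2196198 to 3803197 in sufficient and 1355231 to 2265945 in deficient libraries, ranges that overlap. The erythroid sums and Jchain shares given above did not overlap between the genotypes, nor did the macrophage sums (40.5 to 87.7 and 98.4 to 168). With Jchain left out of the totals the median was -0.36. The part of depth and of other cells was not tested.

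In the other lists few genes were called between genotypes in BMPC, where 2.65% of all genes were called lower. The median was -0.61 over 76 mitochondrial ribosomal proteins, of which 6 were called lower and 0 higher. It was -0.49 over the 16 genes of the TOP list, -0.40 over the 7 ribosomal genes outside the rule and -0.24 over the 11 genes of the mTORC1 route, with 0 called in each of these 3 lists. It was -1.06 over the 12 chaperones and import receptors, of which Ipo9 (-1.88) and Ipo11 (-3.16) were called lower. Ipo11 was at 7.43, 10.4 and 10.3 FPKM in sufficient BMPC and at 0.510, 0 and 0 in deficient BMPC.

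Whether the genotype difference itself differed between cell types was tested by interaction. Of the members 0 were called for BMPC minus nB (0.555% of all genes), although 78 of 79 were below 0 with a median of -0.40, 31 had an unadjusted p under 0.05 and the lowest adjusted p was 0.0652. For BMPC minus GCB 0 were called (0.425% of all genes), with a median of -0.28, 12 at an unadjusted p under 0.05 and a lowest adjusted p of 0.212. For GCB minus nB 0 were called (0% of all genes), 0 had an unadjusted p under 0.05 and the median was -0.12. A difference between cell types in the genotype effect was thus not shown for any single member.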

How the data were processed

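Per the labels and the study's methods, cDNA from 5000 sorted cells was amplified and sequenced. The authors mapped reads with TopHat to mm9, counted them over UCSC known gene exons and deposited FPKM (reads scaled by exon length and library total), with fold changes and FDR of their own comparisons, which were not used. Notes name Picard, R 3.2.2 and edgeR 3.12.1. Strand use is not given in the sources used here. FPKM times exon length gave whole reads for 100% of values (tolerance 0.01 reads) in all 18 libraries, which gave depths and shares.

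The 11522 genes that exceeded 1 FPKM in 2 or more libraries were tested with limma 3.58.1 (R 4.3.3) on log2(FPKM + 1), a scale that understates the change of low genes, as 6 group means over 18 libraries, two-sided, with Benjamini-Hochberg adjustment. The deposited unit is FPKM, so this fit and not a count model was the main test, although reads could be recovered. Voom on the recovered reads, other scalings, filters, covariates and left-out libraries were alternatives. The fit was also run on simulated data with the same spread in every group. That run does not bear on the wider spread of BMPC. There the median SD over all tested genes was 0.775 in sufficient and 0.816 in deficient libraries, with at most 0.412 in the other groups. Named genes were the highest and lowest 5 members, the largest changes called, or up to 3 or 5 by p where few were called, paralogs with parents, and members with roles of their own; other members were named after their values were seen. Members and lists were chosen with earlier results of these data known. Coding sequences were matched to mm9 with blastn 2.17.0 and promoters read from RefSeq.
Some genes are not reported here by name, and 3 members are not drawn in the plot of changes per member.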

Additional observations from a re-analysis of the deposited data

How the results depend on the processing

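Of the members called, the counts from nB to GCB were 1 under every alternative except with no minimum change (18). From nB to BMPC the count of 21 became 74 with no minimum change, 39 under median of ratios scaling, 32 with Jchain left out of the totals, 46 with sufficient and 11 with deficient libraries only, and 19 to 31 leaving out one library. From GCB to BMPC the count of 13 became 73, 38, 29 (sufficient) and 7 (deficient), and 10 to 17 leaving out one library. Median of ratios scaling shifted the median of all genes from -0.66 to -0.517 there, and voom shifted it from -0.792 to -1.44 from nB to BMPC, where the member median was 0.859. In BMPC by genotype the count of 0 became 18 lower with no minimum change, 1 with FPKM above 3 in at least 3 libraries, 2 with members left out of the totals, 1 without the 3 libraries high in neutrophil genes (chosen after seeing the data, with 1 deficient BMPC library left, assumed to vary like the other groups), and 0 to 2 leaving out one library (2 without sufficient library 3, 1 without any one deficient library). Interaction counts were 0 to 2 (BMPC minus nB) and 0 to 1 (BMPC minus GCB) leaving out one library, the highest in both without BMPC deficient library 1. The GCB sufficient share was 5.43% without Rpl3. The cause of these moves was not tested.

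Members whose direction turned had not passed the test at 2-fold. From nB to BMPC, Rpl39l was 0.23 with voom, Rps4l was 0.057 (median of ratios), 0.23 (library weights), 0.73 (sufficient only), 1.05 (without the neutrophil-high libraries) and -0.64 to 0.61 leaving out one library, and Rps27 was -0.064 (deficient only) and -0.054 to 0.11 leaving out one library. From GCB to BMPC, Rpl39l was 0.50 (voom) and 0.00 (sufficient only), Rpl13 was -0.50 to 0.19 leaving out one library, Rpl34 was 0.043 (median of ratios), 0.15 (sufficient only) and -0.52 to 0.14 leaving out one library. Rps4l was 0.047 (library weights), 0.83 (sufficient only), 0.90 (without the neutrophil-high libraries) and -0.79 to 0.46 leaving out one library. Rpl3 was 0.22 (median of ratios), 0.090 (Jchain left out), 0.056 (members left out), 0.10 (sufficient only), 0.022 (without the neutrophil-high libraries) and -0.043 to 0.044 leaving out one library. Rpl13a by genotype in nB was -0.30 to 0.0074 leaving out one library. Other values of named members were counted once per alternative, and 1235 of them kept direction and side of the threshold. Another 35 came to pass, many of them only because the alternative dropped the 2-fold limit, with the value unchanged. The remaining 2 (Rpl39 and Rpl5, 0.81 and 0.85 with deficient libraries only) no longer passed.

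In GCB the labels of the 2 genotypes share a letter and a number, and same-labelled libraries are of the same sex. The correlations of same-labelled libraries' deviations from their group means were -8.06e-05, -0.0171 and 0.0257. With 3 libraries in each group these values cannot show whether such libraries share anything more. With the replicate block 0 members were called, as without it, and the lowest adjusted p was 0.741. The BMPC depth, down to 1355231 reads, limits the lowest members: Rpl34 rested on 3 to 51 reads there.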
